A study of Mus musculus with 8 samples.

Results

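The muscle genes described here are the myosins, troponins and other genes of the sarcomere on expression arrays of mouse embryonic stem (ES) cells. E14Tg2A.4, a feeder-independent ES cell line, was left untreated or was given retinoic acid (RA), the vitamin A derivative that drives ES cells out of self-renewal, for 72 h. By the study's methods RA was all-trans RA at 1 µM in medium from which LIF, the cytokine that keeps ES cells undifferentiated, was left out, so that RA and the loss of LIF cannot be told apart. Each condition had 4 samples, called biological replicates by the submitters, each on a single-colour Agilent array. The labels give the same line for all 8 samples and name no transgene or other treatment. The study used these arrays to ask how genes bound by the Polycomb protein Cbx8 behave during differentiation. Members were all genes whose name on the array is that of a myosin heavy chain (Myh and a number), a myosin light chain (Myl and a number, without Myl9, which leaves out Mylpf), a troponin (Tnn), Tpm3 or Tpm4, an actinin, a myosin binding protein, a tropomodulin or leiomodin, titin (Ttn), desmin (Des), a myomesin or a calsequestrin. This gave 54 genes of the 36406 gene or transcript names on the array. The rule uses gene names and no measured value. These 54 genes have 68 probes, and each gene is described by its brightest probe over the 8 arrays unless stated otherwise.

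The sarcomere is the contractile unit of striated muscle. Myosin heavy chains, each carrying a pair of light chains, form thick filaments that pull on thin filaments of actin. Tropomyosin and the troponin complex (troponin C binds calcium, troponin I inhibits, troponin T anchors the complex to tropomyosin) switch the thin filament on when calcium rises. Titin spans from the Z disc, where actinins crosslink actin, to the M band, where myomesins hold the thick filaments. Calsequestrins buffer calcium in the sarcoplasmic reticulum. Most of these proteins come as families with separate genes for fast skeletal, slow skeletal, cardiac and developing muscle, while a few members (Myh9, Myh10, Myh14, Myl6, Myl12b, Tpm3, Tpm4, Actn1, Actn4, Tmod3) also serve the cytoskeleton of cells that are not muscle.

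All values are log2 intensities relative to the 75th percentile of the same array, so that 0 is the level of a spot at that percentile, and the members ranged from -8.05 to 7.96. A difference is the mean of the 4 RA-treated arrays minus the mean of the 4 untreated arrays on this log2 scale, with its standard error (SE) and a limma p-value adjusted by Benjamini-Hochberg over all 55681 probes. A gene was called when the adjusted p was under 0.05 and the fold change above 1.5. A spot counted as well above background by the scanner software's own flag, and a gene flagged on no array of a condition is called dim there. Between 56.7% and 62.7% of the spots of an array were well above background. Of the 54 members, 36 were well above background on all 8 arrays and 45 on at least 1 array of each condition, while Tmod1, Myh1 and Myl1 were dim in untreated cells, Myh13 was dim after RA, and Myh2, Myh15, Myl10, Lmod1 and Lmod2 were dim on all 8 arrays. Over all gene names, 25.2% were dim on all arrays. The cell label was checked on 8 ES cell markers (Pou5f1, Nanog, Sox2, Zfp42, Esrrb, Klf4, Tdgf1 and Dppa5a), which were well above background on all 8 arrays and all fell with RA, with a median log2 difference of -4.21. The arrays are bulk samples, so fewer cells of a type and less RNA per cell cannot be told apart in any value below.

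RA moved the sarcomere genes in both directions. Of the 54 members 21 rose (38.9%) and 16 fell (29.6%), against 13.9% of all gene names called higher and 22.1% called lower (36.1% in either direction). The remaining 17 were not called. Counts of the role groups below are to be read against these shares of all gene names. The 4 arrays of each condition did not overlap for 19 of the 21 that rose and 14 of the 16 that fell. These counts are among called genes, where overlap is rare by selection. Over all 54 members, 19 were called higher and 14 lower without overlap, and Actn4 lay higher without overlap but was not called. Of all gene names, called or not, 15.3% had every RA array above every untreated array and 25.3% every RA array below. The 14 of 54 below are close to that last share. With quantile normalization 21 members rose and 14 fell, against 15.6% and 16.3% of all gene names (32% in either direction). When the change itself was tested against 1.5-fold, 14 rose and 13 fell, against 8.33% and 10.5% of all gene names (18.8% in either direction). The median difference over the 54 members was 0.53 on the log2 scale and that over all gene names -0.28. Genes that rose came mainly from the troponins, the light chains, the tropomyosins and the non-muscle heavy chains. Genes that fell came mainly from the skeletal heavy chains, titin with its partners, and the calsequestrins. All 37 called members kept their direction within each of the 2 slides that carried the arrays, as did 11 of the 17 not called. The slides hold the same arrays that gave the calls, so this is not an independent check.

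**Figure D1:**
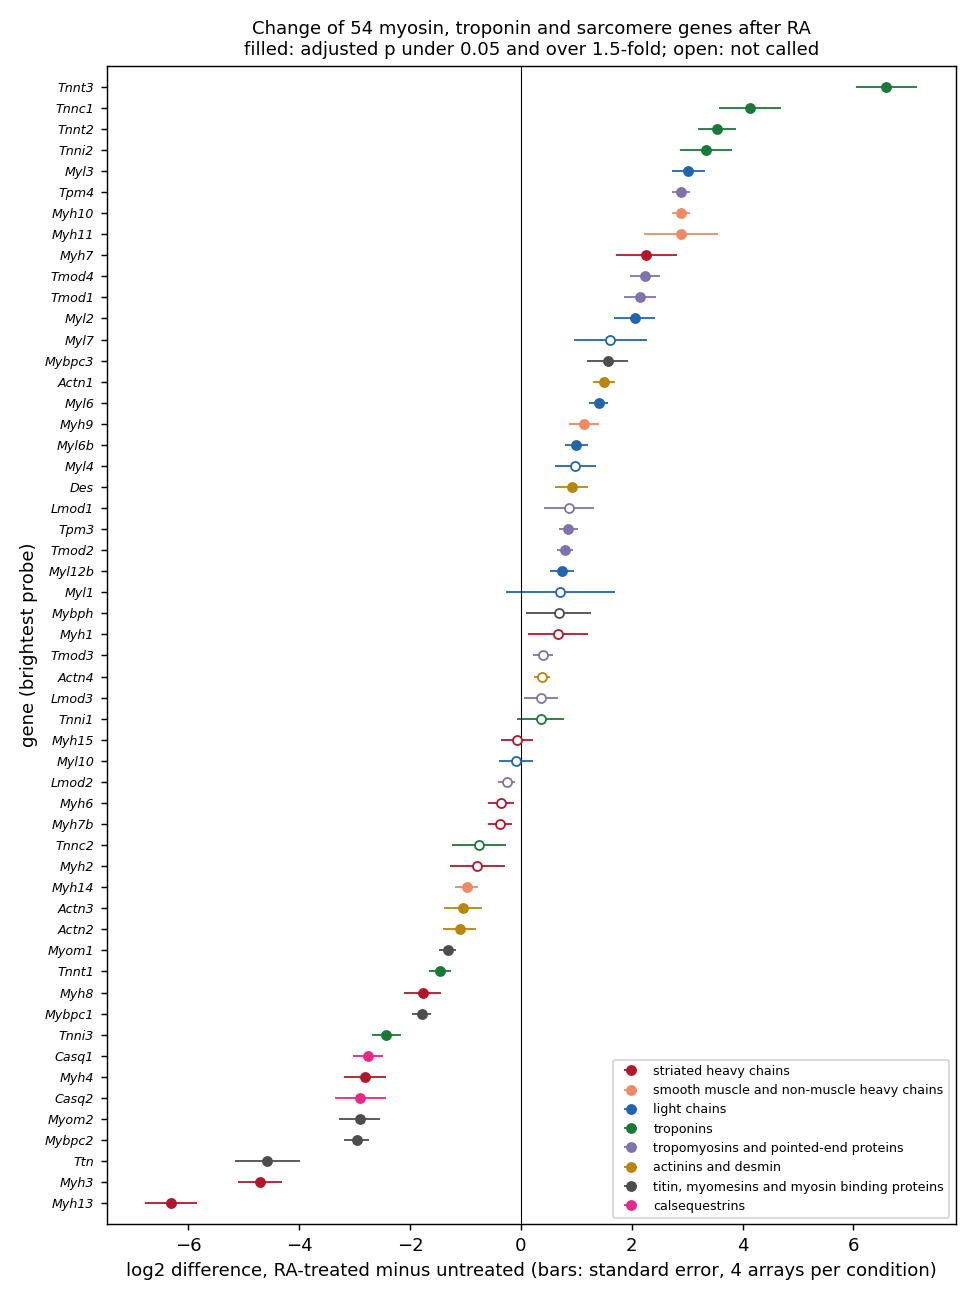
Log2 difference between RA-treated and untreated cells (horizontal axis, bars are the standard error, 4 arrays per condition) for each of the 54 genes (vertical axis), coloured by role, with filled points for called genes. Troponin and light chain genes take the upper end, from Tnnt3 at 6.59, while Myh13 at -6.31, Myh3 at -4.71 and Ttn at -4.58 lie at the lower end.

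The stretches before the start of a few members are shown to set genes that rose beside genes that fell. RefSeq promoter windows (GRCm38.p6, 250 bases before to 50 bases after the start) matched 47 of the 54 members, with 56 windows (all but Actn3, Lmod3, Myh11, Myom2, Tmod3, Tnni2 and Tnnt3). They were searched on both strands for the CArG box, which serum response factor binds, for the MEF2 site, for CATTCC (the core bound by TEAD factors), for TATAAA, which can fall within a MEF2 site, for the E-box CANNTG, for the nuclear receptor core AGGTCA and for the GATA factor site AGATAA. A CArG box was found in 1.63% of all 32851 promoter windows, in 2 of 24 windows of members that rose (Myl3 and Myl6), in 3 of 14 of members that fell (Myh4, Myom1 and Myh13) and in 1 of 18 of those not called (Myl7). A MEF2 site was found in 3.19% of all windows, in 1 of 24 of members that rose (Mybpc3), in 4 of 14 of members that fell (Casq2, Myh4, Myh8 and Ttn) and in 1 of 18 of those not called. CATTCC was found in 14.7% of all windows, in 25.0% of those of members that rose, in 21.4% of those of members that fell and in 44.4% of those not called. TATAAA was found in 13.6% of all windows, in 8.33% of those of members that rose, in 28.6% of those of members that fell and in 33.3% of those not called. The E-box was in 72.3% of all windows, in 91.7% of those of members that rose, in all 14 of members that fell and in 72.2% of those not called. The nuclear receptor core was in 16.3% of all windows and in 16.7%, 7.14% and 16.7% of the same groups. The GATA factor site was in 11.2% of all windows and in 12.5%, 7.14% and 11.1%. Matches of these last 3 motifs are not marked in the printed stretches. These matches are letters in a window, and no binding was measured here. The 250 bases before the start are printed with matches in capitals:
Myl3, chr9:110763428-110763677, plus strand: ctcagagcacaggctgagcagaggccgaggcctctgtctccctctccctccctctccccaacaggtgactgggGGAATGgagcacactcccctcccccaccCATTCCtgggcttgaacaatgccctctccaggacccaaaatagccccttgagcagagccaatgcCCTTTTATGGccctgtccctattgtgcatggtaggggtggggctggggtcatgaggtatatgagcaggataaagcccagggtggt
Tnnc1, chr14:31208062-31208311, plus strand: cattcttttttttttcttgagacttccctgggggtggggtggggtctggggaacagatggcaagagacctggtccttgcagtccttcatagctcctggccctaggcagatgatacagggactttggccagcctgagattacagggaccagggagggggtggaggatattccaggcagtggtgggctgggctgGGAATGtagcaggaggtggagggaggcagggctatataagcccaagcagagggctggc
Tnnt2, chr1:135836084-135836333, plus strand: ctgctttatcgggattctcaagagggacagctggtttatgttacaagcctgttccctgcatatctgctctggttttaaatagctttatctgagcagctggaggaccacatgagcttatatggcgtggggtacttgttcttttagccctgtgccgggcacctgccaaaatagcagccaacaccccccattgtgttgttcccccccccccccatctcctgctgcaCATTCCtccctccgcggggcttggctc
Myh4, chr11:67237562-67237811, plus strand: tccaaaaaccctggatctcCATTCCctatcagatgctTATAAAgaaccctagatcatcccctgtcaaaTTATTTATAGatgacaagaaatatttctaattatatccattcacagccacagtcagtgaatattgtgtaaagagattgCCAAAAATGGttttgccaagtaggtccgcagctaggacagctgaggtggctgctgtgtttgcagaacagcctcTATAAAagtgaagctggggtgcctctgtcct
Casq2, chr3:102086165-102086414, plus strand: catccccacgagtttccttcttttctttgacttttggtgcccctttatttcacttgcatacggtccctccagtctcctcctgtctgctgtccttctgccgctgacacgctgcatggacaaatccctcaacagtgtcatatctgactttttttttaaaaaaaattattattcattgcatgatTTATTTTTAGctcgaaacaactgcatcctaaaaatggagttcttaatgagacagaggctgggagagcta
Ttn, chr2:76982548-76982797, minus strand: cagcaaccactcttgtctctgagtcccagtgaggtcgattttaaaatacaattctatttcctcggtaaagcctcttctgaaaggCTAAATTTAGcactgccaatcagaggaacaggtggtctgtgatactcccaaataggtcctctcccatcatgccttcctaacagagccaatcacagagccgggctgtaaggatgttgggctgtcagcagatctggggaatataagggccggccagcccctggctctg
Myl3 holds a CArG box from -85 to -76 and CATTCC from -177 to -172 and from -149 to -144, counted back from the start. Tnnc1 and Tnnt2 each hold CATTCC, from -58 to -53 and from -27 to -22. The window of Tnnt2 is the first of 2 that RefSeq gives. Myh4 holds a MEF2 site from -182 to -173, which contains TATAAA, a CArG box from -104 to -95, CATTCC from -231 to -226, and further TATAAA matches from -213 to -208 and from -31 to -26. Casq2 holds a MEF2 site from -69 to -60 and Ttn from -166 to -157.

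Among the 8 troponin genes 4 rose and 2 fell. Tnnt3 encodes the troponin T of fast skeletal muscle, and its probe lies at chr7:149698467-149698526 (mm9). It was at -6.03, -4.30, -5.68 and -7.32 on untreated arrays 1 to 4 and at 1.30, 0.72, 0.67 and 0.36 on RA arrays 1 to 4. All RA arrays lay far above the untreated ones, only 1 of which was well above background. The log2 difference of 6.59 (SE 0.55, adjusted p = 3.36e-05) was the largest fitted rise of the 54 members. A second probe of Tnnt3 gave 5.92, but the probes share a stretch of 27 bases and are not independent measurements. The shared stretch is shown because it is the piece of the transcript that both 60-base probes have in common:
Tnnt3 shared stretch: ggagaagctgaaacgtcagaaatatga

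Tnni2, the troponin I of fast skeletal muscle, was at -3.15, -2.74, -1.78 and -3.29 on the untreated arrays and at 1.42, 1.19, 0.28 and -0.48 on the RA arrays. It rose by 3.34 (SE 0.47, adjusted p = 0.000603), a 10.1-fold change (6.44-fold with normexp background correction), with no overlap. Its probe lies 68.2 kb from that of Tnnt3 on chromosome 7 (mm9), so that both genes of this troponin I and T pair rose.

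The cardiac troponin T gene Tnnt2 was at -4.78, -4.41, -4.45 and -4.10 in untreated cells and at -0.43, -0.18, -1.19 and -1.77 after RA. This was a rise of 3.54 (SE 0.34, adjusted p = 7.09e-05), or 11.6-fold (4.79-fold with normexp). Tnni1, the troponin I of slow skeletal muscle, lies beside it on chromosome 1, with 41.8 kb between the probes, and was not called. Its values were -3.81, -3.51, -4.20 and -3.52 without RA and -2.11, -3.83, -3.49 and -4.20 with RA, so that RA array 1 stood above all untreated arrays and RA array 3 at their upper edge. The difference was 0.35, with a 95% interval from -0.60 to 1.30 and an adjusted p of 0.505 by limma. Tnnc1, the troponin C of cardiac and slow skeletal muscle, was at -4.21, -4.41, -5.70 and -4.49 without RA and at -0.09, 0.80, -1.49 and -1.52 with RA. It rose by 4.13 (SE 0.56, adjusted p = 0.000462), with RA arrays 1 and 2 above RA arrays 3 and 4. Tnnc2, the fast skeletal troponin C, was not called (-0.75, 95% interval -1.86 to 0.36, limma adjusted p = 0.229), although it passed when RA replicate 2 was left out (-1.20, adjusted p = 0.0354).

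The third pair of troponin genes went the other way. Tnni3, the cardiac troponin I, was at -0.19, -0.19, -1.06 and -0.30 in untreated cells and at -3.14, -3.19, -2.42 and -2.72 after RA, a fall of 2.43 on the log2 scale (SE 0.26, adjusted p = 0.000122) or 5.38-fold, with no overlap. Tnnt1, the troponin T of slow skeletal muscle, ranged from 2.80 to 3.31 without RA and from 1.21 to 1.93 with RA and fell by 1.46 (SE 0.20, adjusted p = 0.000468). Their probes are 15.7 kb apart on chromosome 7 (mm9). Of the genes of the cardiac troponin complex, Tnnt2 and Tnnc1 therefore rose while Tnni3 fell.

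**Figure D2:**
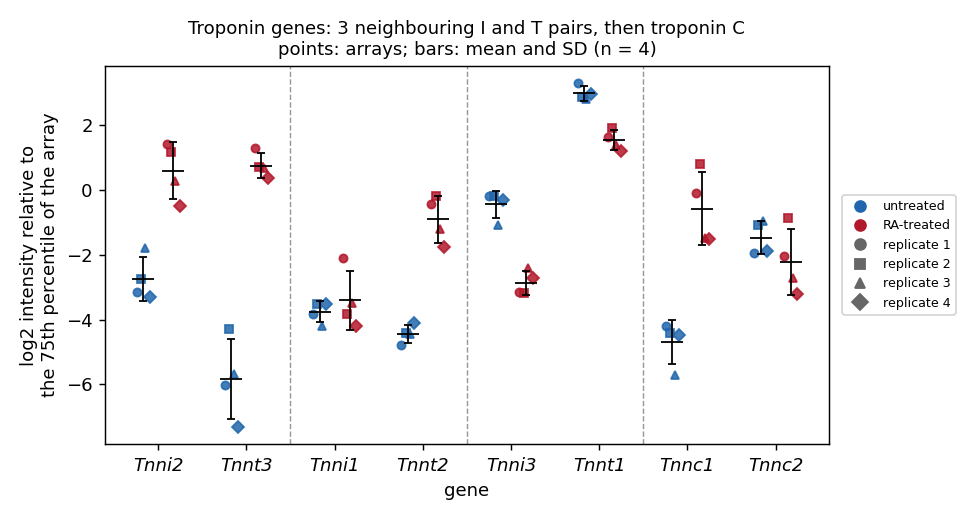
Log2 intensity relative to the 75th percentile of the array (vertical axis) for the 8 troponin genes (horizontal axis), ordered as the 3 chromosomal neighbour pairs of troponin I and T and then troponin C, with a point per array, a marker shape per replicate and bars for mean and SD (n = 4). Tnni2, Tnnt3, Tnnt2 and Tnnc1 were higher and Tnni3 and Tnnt1 lower on every RA array than on any untreated array, while Tnni1 and Tnnc2 overlapped.

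Of the 10 heavy chains of striated muscle 1 rose, 4 fell and 5 were not called. Myh13, the heavy chain of extraocular muscle, with its probe at chr11:67182651-67182710 (mm9), was at -0.52, 0.30, -0.74 and -0.44 on the untreated arrays and at -7.23, -5.88, -5.77 and -7.77 on the RA arrays. It was dim on all 4 RA arrays, so that the fall is given as a bound of at least 40.6-fold (fitted log2 difference -6.31, limma adjusted p = 1.89e-05). For such a dim gene the bound sets the brighter condition's mean against the lowest signal among spots well above background, or the gene's own signal where that is higher. It holds for the processed intensities only, since normexp gave Myh13 a 9.80-fold fall, which is below the bound.

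Myh3, the embryonic skeletal heavy chain, had nearly the same level on all untreated arrays (-0.02, 0.14, 0.07 and -0.05). After RA it was at -4.78, -3.76, -4.29 and -5.86, with 3 of 4 arrays well above background. It fell by 4.71 (SE 0.39, adjusted p = 3.25e-05), and a second probe of the gene gave -4.87. Myh4, the heavy chain of fast glycolytic (IIb) fibres, was at -1.05, -1.96, -0.73 and -1.53 without RA and at -4.03, -3.26, -4.30 and -4.95 with RA, and fell by 2.82 (SE 0.38, adjusted p = 0.00048). Its upstream stretch was the only printed one with both a CArG box and a MEF2 site. Myh8, the perinatal heavy chain, went from a range of -1.59 to -0.44 to a range of -3.38 to -2.31 (a fall of 1.77, SE 0.33, adjusted p = 0.00286). These genes form a cluster on chromosome 11, in the order Myh3, Myh2, Myh1, Myh4, Myh8 and Myh13 by the mm9 positions of the probes, each neighbour within 95.8 kb of the next. Myh3, Myh4, Myh8 and Myh13 thus fell, while Myh2 and Myh1, the heavy chains of fast IIa and IIx fibres, were dim in untreated cells, where a fall could not be measured, and Myh1 was well above background on 1 RA array. Myh2, dim on all arrays and given no fold, passed the call without RA replicate 2, which was its highest RA array. Probes of different heavy chains could in principle bind the same transcript. Only probes were compared with each other and no transcript was searched, so such binding was not tested. The longest run shared by the brightest probes of different members was 24 bases, between Myh3 and Myh15, the latter dim on all arrays. Every other pair of probes shared 12 bases or fewer.

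Myh7 and Myh6, the slow (beta) and fast (alpha) heavy chains of heart muscle, lie side by side on chromosome 14 with 28.7 kb between their probes (mm9). Myh7 was at -1.12, -1.39, 0.32 and -1.04 without RA and at 1.87, 2.76, 0.65 and 0.54 with RA. It rose by 2.26 (SE 0.55, adjusted p = 0.0112), a 4.80-fold change, though untreated array 3 (0.32) came close to RA array 4 (0.54). Myh6 was at 0.16, 0.97, 1.06 and 0.48 without RA and at -0.05, 0.53, 0.42 and 0.30 with RA. The groups overlapped, and the difference of -0.37 was not called (95% interval -0.90 to 0.17, limma adjusted p = 0.224). Myh7b, a further slow-type heavy chain, was not called either (-0.38, 95% interval -0.86 to 0.10).

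The heavy chains of smooth muscle and of non-muscle cells went mostly up, with 3 of 4 higher. Myh10, the non-muscle myosin IIB heavy chain, was at 1.61, 1.48, 1.26 and 1.42 in untreated cells and at 4.65, 4.20, 4.17 and 4.32 after RA. It rose by 2.89 (SE 0.16, adjusted p = 5.31e-06), a 7.43-fold change with little spread on either side. A second probe of Myh10 was dim on all 8 arrays, and with both probes averaged the difference was 1.38. Myh11, the heavy chain that defines smooth muscle, was at -6.29, -7.91, -4.70 and -6.42 without RA and at -2.29, -3.26, -3.79 and -4.43 with RA. It rose by 2.89 as well, but with a wider error (SE 0.67, adjusted p = 0.00871) and with 1 untreated array well above background. The size of this rise is uncertain, since the log2 difference was 0.87 with normexp and 1.07 in the authors' values. Myh9, non-muscle IIA, rose by 1.14 (SE 0.27, adjusted p = 0.00999), whereas Myh14, non-muscle IIC, fell by 0.98 (SE 0.21, adjusted p = 0.00539), in each case with no overlap.

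**Figure D3:**
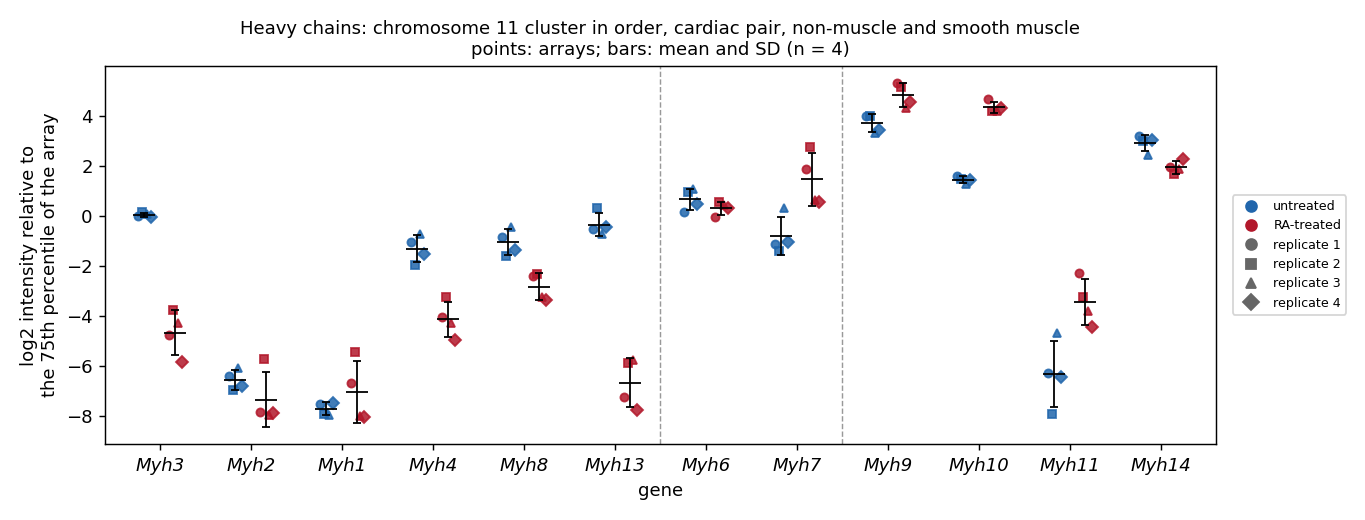
Log2 intensity relative to the 75th percentile of the array (vertical axis) for 12 myosin heavy chain genes (horizontal axis), as the chromosome 11 cluster in its order, the cardiac pair, and the non-muscle and smooth muscle genes, with a point per array, a marker shape per replicate and bars for mean and SD (n = 4). Myh3, Myh4, Myh8 and Myh13 dropped after RA while Myh2 and Myh1 were at -5.44 or below on every array, and Myh7, Myh9, Myh10 and Myh11 rose.

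Of the 9 light chain genes among the members 5 rose and none fell by the call (limma). At an unadjusted p under 0.05 the count that fell was also 0. Myl3, the essential light chain of ventricular and slow skeletal muscle, was at -3.05, -2.82, -1.92 and -2.32 without RA and at 0.11, 0.51, 1.08 and 0.28 with RA, a rise of 3.02 (SE 0.30, adjusted p = 7.8e-05) or 8.12-fold. Its upstream stretch holds the CArG box printed with the promoters. Myl2, the regulatory light chain of ventricular and slow muscle, was at -4.04, -3.96, -3.34 and -4.07 without RA and at -1.35, -0.97, -2.26 and -2.63 with RA, a rise of 2.05 (SE 0.37, adjusted p = 0.00232). Both ventricular light chains thus rose with no overlap between the conditions.

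Neither atrial light chain was called. Myl7, the atrial regulatory light chain, ranged from -4.13 to -2.35 without RA and from -3.10 to -0.07 with RA. Its difference of 1.61 was not called (95% interval 0.11 to 3.12, limma adjusted p = 0.0872), and RA array 2 was the RA array at -3.10. Without that array the difference was 2.18 (adjusted p = 0.0146). Myl4, the atrial and embryonic essential light chain, ranged from 0.77 to 1.19 without RA and from 0.93 to 2.67 with RA (difference 0.98, adjusted p = 0.0654), and here RA array 4 was the low array. Without RA array 4 the difference was 1.34 (adjusted p = 0.00448).

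Myl6, the essential light chain of non-muscle and smooth muscle myosin, was at 6.63, 6.64, 6.10 and 6.42 without RA and at 7.96, 7.94, 7.65 and 7.85 with RA, a rise of 1.40 (SE 0.17, adjusted p = 0.000228). Its second probe gave 1.50. Myl6b, whose probe lies 3.24 kb from that of Myl6 on chromosome 10 (mm9), rose by 1.00 (SE 0.20, adjusted p = 0.0045). Myl12b, a non-muscle regulatory light chain, rose by 0.74 (SE 0.21, adjusted p = 0.022), a call that was lost without untreated replicate 3 (0.55, below 1.5-fold) and without RA replicate 1, 3 or 4 (adjusted p = 0.0584, 0.0529 and 0.0551). Myl1, the fast skeletal essential light chain, was dim in untreated cells and spread from -7.42 to -2.82 over the RA arrays, with 2 of 4 well above background, and was not called.

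Tropomyosins and the proteins of the pointed end, where tropomodulins cap the thin filament and leiomodins nucleate it, counted 5 of 9 higher and none lower by the limma call, and also 0 lower at an unadjusted p under 0.05. Tpm4, a tropomyosin of the cytoskeleton, was at 3.21, 3.13, 2.85 and 3.28 without RA and at 6.24, 6.12, 5.81 and 5.88 with RA. It rose by 2.89 (SE 0.16, adjusted p = 5.51e-06), a 7.43-fold change. Tpm3 ranged from 6.33 to 6.81 without RA and from 7.33 to 7.72 with RA, a rise of 0.86 (SE 0.16, adjusted p = 0.00321). With all probes of Tpm3 averaged, a dim probe included, its difference was 0.43 and the call was lost (adjusted p = 0.294).

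Tmod4, the tropomodulin of skeletal muscle, was at -5.37, -4.27, -4.28 and -4.82 without RA and at -2.74, -2.31, -2.16 and -2.60 with RA, a rise of 2.23 (SE 0.27, adjusted p = 0.000242). Tmod1, the tropomodulin of striated muscle and red cells, was at -7.14, -7.53, -7.60 and -7.11 without RA, dim on all 4 arrays, and at -4.75, -4.64, -5.91 and -5.49 with RA, where 2 arrays were well above background. Its fitted difference was 2.15 (limma adjusted p = 0.000515), but the bound is a rise of at least 1.18-fold, which is below the fold required for a call, so that 20 members rose when such genes were held to their bounds. Tmod2 rose by 0.80 (SE 0.15, adjusted p = 0.00242), a call lost with normexp background correction (0.57, below 1.5-fold), and Tmod3 (0.40) and Lmod3 (0.36) were not called.

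**Figure D4:**
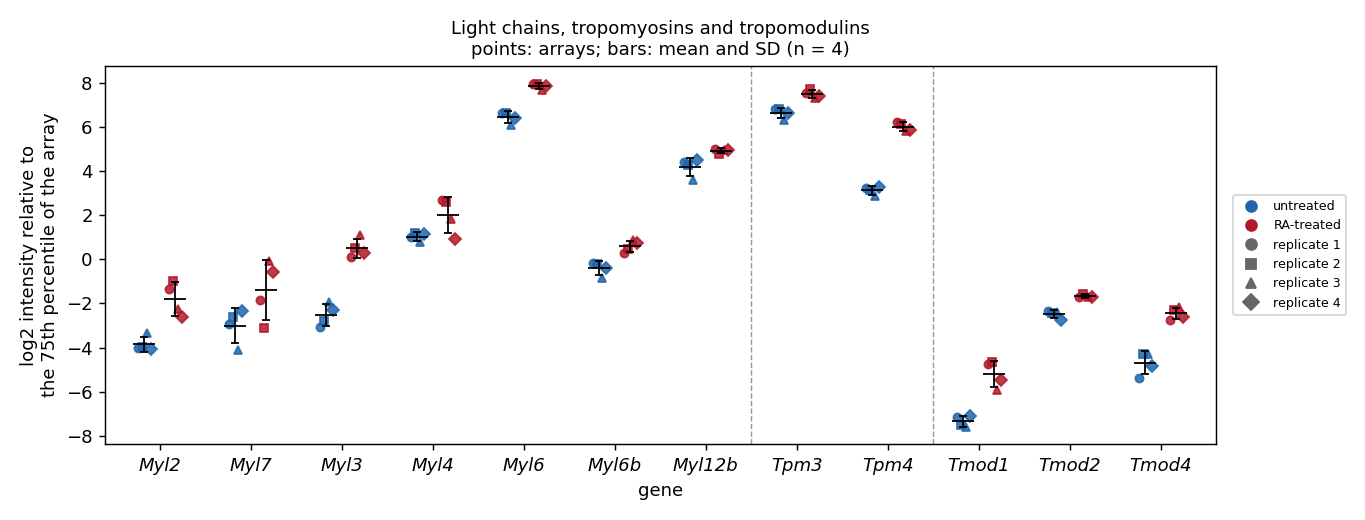
Log2 intensity relative to the 75th percentile of the array (vertical axis) for 7 light chain genes, Tpm3, Tpm4 and 3 tropomodulin genes (horizontal axis), with a point per array, a marker shape per replicate and bars for mean and SD (n = 4). Myl7 and Myl4 overlapped between the conditions, with Myl7 low on RA array 2 and Myl4 low on RA array 4, and the other 10 genes did not overlap.

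Of titin and its partners, 7 genes in all, 5 fell and 1 rose. Ttn itself, the giant spring of the sarcomere, has its brightest probe at chr2:76542077-76542136 (mm9). It was at 0.23, 0.25, 0.49 and -0.95 without RA and at -4.55, -3.20, -4.33 and -6.21 with RA, and fell by 4.58 (SE 0.59, adjusted p = 0.000355), or 23.8-fold, which was 9.79-fold with normexp background correction. A second probe was also lower, but it was well above background on 1 of 4 RA arrays, so that the size of its change is uncertain (-5.44, or -2.33 with normexp), and a further 2 probes of Ttn were dim on all 8 arrays. With all 4 probes averaged the difference was -2.64. Myom2, the M band protein of fast and adult heart muscle, was at 1.03, 0.85, 0.25 and 0.97 without RA and at -2.25, -1.30, -1.87 and -3.13 with RA, a fall of 2.91 (SE 0.37, adjusted p = 0.00033). Myom1 ranged from -2.83 to -2.53 without RA and from -4.26 to -3.78 with RA and fell by 1.32 (SE 0.15, adjusted p = 0.000198).

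The myosin binding proteins C, which tie myosin to titin and tune contraction, went in different directions. Mybpc2, the fast skeletal form, was at -0.29, -0.05, -0.17 and 0.04 without RA and at -2.94, -2.54, -3.22 and -3.63 with RA, and fell by 2.97 (SE 0.23, adjusted p = 2.43e-05). Mybpc1, the slow skeletal form, was at -1.18, -1.42, -1.53 and -1.79 without RA and at -3.07, -3.44, -3.15 and -3.43 with RA, and fell by 1.79 (SE 0.18, adjusted p = 7.65e-05). A second probe of Mybpc1 was also lower, but it was well above background on 1 of 4 RA arrays, so that the size of its change is uncertain (-2.51, or -0.88 with normexp). Mybpc3, the cardiac form, rose by 1.56 (SE 0.37, adjusted p = 0.00911), although the conditions overlapped, with untreated array 2 at -1.21 and RA array 2 at -1.24. Mybph was well above background on 1 array of each condition and was not called, except without untreated replicate 2 (1.25, limma adjusted p = 0.0472).

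Both calsequestrins fell. Casq1, the skeletal muscle form, was at -1.83, -2.58, -2.44 and -2.26 without RA and at -4.93, -4.51, -4.99 and -5.72 with RA, a fall of 2.76 (SE 0.27, adjusted p = 8.23e-05). Casq2, the cardiac form, was at -2.02, -2.01, -2.23 and -2.28 without RA and at -4.08, -5.05, -4.48 and -6.51 with RA, a fall of 2.90 (SE 0.46, adjusted p = 0.00113). No RA array reached the untreated range in either gene, and each was well above background on 3 of the 4 RA arrays.

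Of the 4 actinins 1 rose and 2 fell. Actn1, a cytoskeletal actinin, was at 0.83, 0.97, 0.55 and 0.90 without RA and at 2.70, 2.50, 2.11 and 1.96 with RA, a rise of 1.50 (SE 0.20, adjusted p = 0.000405). Actn4, the other cytoskeletal form, had a difference of 0.38 with no overlap but below 1.5-fold (limma adjusted p = 0.0682), and it was called at 0.62 when the arrays were quantile normalized. The sarcomeric forms Actn2 (a fall of 1.10, adjusted p = 0.0179) and Actn3 (a fall of 1.04, adjusted p = 0.0399) were called lower, but in both the conditions overlapped and both calls were lost with quantile normalization (adjusted p = 0.0543 and 0.0760). The call of Actn2 was also lost without RA replicate 1 (adjusted p = 0.0510), and that of Actn3 without untreated replicate 1, 2 or 4 or RA replicate 1, 3 or 4 (limma adjusted p from 0.0575 to 0.0986). Des, the intermediate filament of muscle, rose by 0.92 (adjusted p = 0.0389) with overlapping arrays, from a range of -1.87 to -0.73 to a range of -0.92 to 0.03. Its call was lost with quantile normalization (adjusted p = 0.0531) and with the replicate number as a block (adjusted p = 0.0737), with the slide as a block (0.0525), and when any single array other than untreated replicate 3 or RA replicate 4 was left out (0.0544 to 0.102).

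**Figure D5:**
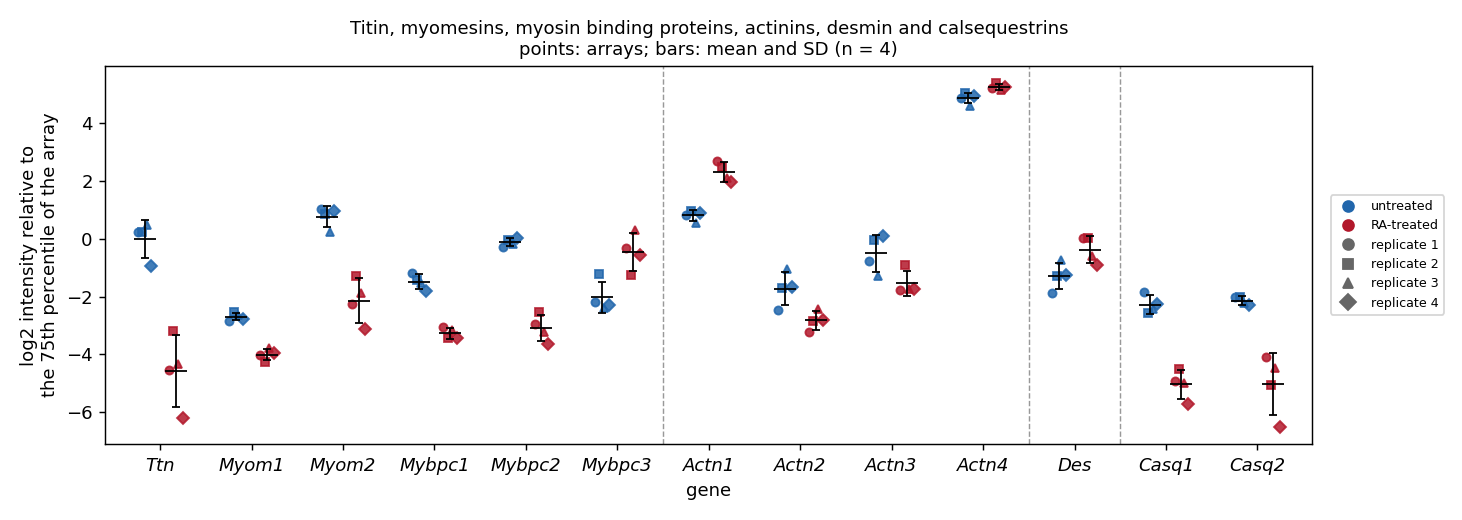
Log2 intensity relative to the 75th percentile of the array (vertical axis) for titin, myomesin, myosin binding protein, actinin, desmin and calsequestrin genes (horizontal axis), with a point per array, a marker shape per replicate and bars for mean and SD (n = 4). Ttn, Myom1, Myom2, Mybpc1, Mybpc2, Casq1 and Casq2 were lower on every RA array than on any untreated array, Actn1 was higher, and Mybpc3, Actn2, Actn3 and Des overlapped.

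Several members with low signal had smaller changes under another background correction. With normexp (offset 50) on the raw spot and background intensities, the fold change of 15 of the 37 called members moved by more than 1.5 times. Among those that rose, the log2 difference with normexp was 4.19 for Tnnt3, 2.78 for Tnnc1, 2.69 for Tnni2, 2.26 for Tnnt2, 1.31 for Myl2, 1.16 for Tmod4, 0.87 for Myh11 and 0.23 for Tmod1, the last of which was no longer called. Among those that fell, it was -3.39 for Myh3, -3.29 for Myh13, -3.29 for Ttn, -2.38 for Mybpc2, -1.96 for Myh4, -1.57 for Casq2 and -1.45 for Casq1. Their direction was unchanged. In the authors' values Myh13 was at -3.15, Ttn at -3.17 and Myh4 at -1.82. Across 17 fits that varied the scaling, the background correction, the blocks and the arrays left out, 17 members were called higher in every fit and 14 lower in every fit. The exceptions were Des, Myl12b, Tmod1 and Tmod2 among those that rose and Actn2 and Actn3 among those that fell.

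The RA arrays were not alike in these genes. Among the 21 members that rose, RA array 4 was nearest to the untreated mean in 10, and RA array 1 was farthest from it in 9. Among the 16 that fell, RA array 2 was nearest to the untreated mean in 9 and RA array 4 farthest in 10. The mean log2 level of the 8 ES cell markers on RA arrays 1 to 4 was 1.33, 2.38, 0.97 and 0.52, against 5.26 to 5.66 on the untreated arrays, so RA array 2 kept the most of this signal and RA array 4 the least. The part of this spread in the members' values was not tested. Leaving out RA replicate 2 gave 21 members higher and 18 lower, and leaving out RA replicate 4 gave 21 higher and 15 lower.

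Muscle genes that the rule leaves out were examined beside the members. The counts of each list stand against 13.9% of all gene names called higher and 22.1% called lower. Of 33 further sarcomere and Z disc genes 12 rose and 6 fell. Actc1 and Acta1, the cardiac and skeletal alpha-actins, had the largest rises of that list (8.90, limma adjusted p = 2.83e-05, and 8.33, adjusted p = 1.02e-05). With normexp their log2 differences were 6.35 and 7.09, so that their order was reversed and the sizes are uncertain. Mylpf, the fast skeletal regulatory light chain that the rule on names leaves out, and Myot, a Z disc protein, fell by at least 10.7-fold and at least 4.29-fold. Both were dim after RA. Of 15 genes of calcium handling and excitation 4 rose and 1 fell. The fall was that of Ryr1, the calcium release channel of skeletal muscle (-1.97, adjusted p = 0.00011), and among the rises Jph2 and Cacnb2, which were dim in untreated cells, rose by at least 5.21-fold and at least 1.58-fold. Of 23 muscle transcription factors 14 rose and 3 fell. Hand2, a factor of the heart and limb, rose by at least 55.9-fold and Myocd, the coactivator of smooth and cardiac muscle genes, by at least 12.7-fold, whereas Myog, the factor of skeletal muscle differentiation, fell by at least 1.60-fold and Mef2b fell by 1.25 on the log2 scale (adjusted p = 0.0158). These bounds, too, hold for the processed intensities only, and with normexp the folds were below them, at 3.69 for Mylpf, 2.23 for Myot, 2.10 for Jph2, 1.16 for Cacnb2, 16.1 for Hand2, 4.20 for Myocd and 1.57 for Myog.

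Markers of other cell types that such a culture could hold were counted beside the members. Here too 13.9% of all gene names were called higher and 22.1% lower. Of 8 smooth muscle markers 7 rose, and their summed linear level (in units of the 75th percentile) went from 7.62 to 10.1 on the untreated arrays to 268 to 484 on the RA arrays. Myh11 and Des belong to both lists. Of 8 cardiac markers 5 rose and 1 fell, with a summed level of 2.41 to 3.27 without RA and 3.34 to 3.89 with RA. Myl2, Myl7, Myh6 and Tnni3 belong to both lists, so this sum is not independent of the members. The median log2 level of the 8 cardiac markers was -3.82 to -3.60 without RA and -2.33 to -1.61 with RA. Of 8 skeletal muscle markers 1 rose (Acta1) and 3 fell (Myod1, Myog and Mylpf). Their summed level went from 0.432 to 0.547 up to 10.5 to 44.6, nearly all of it from Acta1 on the RA arrays, whereas their median log2 level was -5.69 to -4.01 without RA and -6.93 to -5.82 with RA. Myf5 was dim on all 8 arrays, and Myog, Ckm and Mylpf were dim on all RA arrays. Of 8 fibroblast and feeder cell markers 7 rose (1.16 to 2.02 without RA, 31.7 to 49.7 with RA), and of 8 primitive endoderm markers 8 rose (8.48 to 23.0 without RA, 58.2 to 76.8 with RA). The summed level of the ES cell markers went from 449 to 624 down to 45.6 to 120. Among 7 neural markers 3 rose and 2 fell (13.4 to 24.1 without RA, 14.3 to 17.6 with RA). The part of any of these cell types in the members' changes was not tested.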

How the data were processed

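RNA of 4 untreated and 4 RA-treated cultures was measured on single-colour Agilent arrays, with groups and replicate numbers from the labels. The 54 genes, the role groups and the other lists were chosen with earlier results of these data known. Per the file headers, the deposited scanner output (Feature Extraction 10.7.3.1, probe positions on mm9) gives for each spot an intensity that was background-corrected and detrended but not normalized between arrays. A further deposited table, of quantile normalized log2 values, served here only as an alternative. The deposited tables give intensities and no counts, and the number of arrays limits precision.

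The log2 of the processed intensity minus the 75th percentile of each array (59305 spots without controls) was taken, outlying spots were left out, the spots of a probe were averaged, and no dim probe was filtered. No spot was saturated. The difference between conditions was fitted in R 4.3.3 by limma 3.58.1 (lmFit, eBayes), with Benjamini-Hochberg adjustment over 55681 probes. The steps were tested on simulated data. Myl12a, Myl5 and Myh16, which the role groups name, were not found among the array's gene names. Values on each array were given for the 14 largest rises and 10 largest falls that were called without overlap, for Tnnt2, Tnnc1, Tnni1, Tnni3, Myh6 and Myh7, and for members with probes of opposite direction that were well above background on all arrays of a condition, of which there were none. In the other lists the 2 largest rises and 2 largest falls by the fitted difference, before any bound, were named.

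Each of the 2 slides held 2 arrays of each condition. Same-numbered arrays were compared by their deviations from the condition means over 27493 probes. The correlations were r = 0.186, 0.189, 0.104 and 0.151 for replicates 1 to 4. Between different numbers the highest was 0.142, which is above that of replicate 3. The labels give replicate numbers only, and this check does not establish that the numbers pair the samples. The main fit was unpaired. Alternatives were quantile normalization, normexp (offset 50), another percentile set, the authors' log2 values, a filter on dim probes, the mean of all probes, outlying spots kept, the replicate or slide as a block, each slide alone, each array left out, a 2-fold threshold and a test against 1.5-fold. Holding dim members to their bounds and leaving out members dim on all arrays were chosen after seeing the data. Array figures were drawn with matplotlib 3.10.9.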

Additional observations from a re-analysis of the deposited data

Results flagged for a closer look

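Within a condition, 1 array stood apart from the other 3 by Dixon's criterion in 9 of 108 groups of 4, where chance gives about 1 in 20, or 5.4. Actn3 on RA replicate 2 was at -0.90, with the others from -1.78 to -1.73. Lmod3 on RA replicate 4 was at -3.02, with the others from -2.65 to -2.61. Myh7b on RA replicate 3 was at -1.93, with the others from -2.51 to -2.43. Myl12b on RA replicate 2 was at 4.75, with the others from 4.96 to 5.01. Myl2 on untreated replicate 3 was at -3.34, with the others from -4.07 to -3.96. Tnni3 on untreated replicate 3 was at -1.06, with the others from -0.30 to -0.19. The remaining 3 are genes that were dim on all 8 arrays. Myh15 on RA replicate 2 was at -6.53, Myh2 on RA replicate 2 at -5.71 and Myl10 on RA replicate 3 at -6.66. Among 504 spots of members, at most 12.5% of the neighbouring spots on the array were displaced.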

How the results depend on the processing

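The main counts of 21 members higher and 16 lower were 21 and 14 with quantile normalization, which moves the median of all probes from -0.28 to -0.003. Normexp gave 21 and 16, and the authors' log2 values 21 and 15. With the replicate number as a block the counts were 20 and 16, and this block ended the call of Des and of no other member. With the slide as a block they were also 20 and 16. Within slide 1 alone 13 were higher and 14 lower, and within slide 2 alone 14 and 13, each with 2 arrays per condition. Leaving out each array in turn gave 19 to 21 higher and 14 to 18 lower. A test against 1.5-fold gave 14 and 13, and a 2-fold threshold 17 and 15. No called member reversed under any alternative. Members not called in the report that passed under at least 1 scaling, block or left-out array were Myh2, Mybph, Myl4, Myl7, Tnnc2 and Actn4. The signal over background limits Tnnt3, Myh11, Myh13, Tmod1 and Myl1, which lie near the background in a condition. To a lesser degree it limits Ttn, Myh3, Casq1 and Casq2, well above background on 3 of 4 RA arrays. The same holds for Tnnc1 and Tmod4, well above background on 3 of 4 untreated arrays. The fold changes of these genes, too, were smaller with normexp.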
